A study of Homo sapiens with 17 samples.

Results

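SOX2 and full-length FOXA2, pioneer transcription factors of different protein families, were compared by where each was found on chromatin in the same cell type. The comparison used 4 of the 17 samples of the study, 2 biological replicates with SOX2 and 2 with full-length FOXA2. U2OS is a human osteosarcoma cell line, and each group was a stable Tet-on line of it, with the genotype Tet-on SOX2 or Tet-on FOXA2. Both lines carried a Flag-tagged factor and were treated with doxycycline, the drug that switches a Tet-on transgene on, at 500 ng/ml for 4 days according to the treatment labels. The extraction protocol in the labels gives 500 ng/ul, a conflict that was not resolved. DNA bound by each factor was recovered with a Flag antibody and sequenced (ChIP-seq), so the data describe an induced transgene in a tumour line and not a factor made by its own gene. Whether a line was 1 clone or a pool is not stated in the labels. Members were all peaks, the regions of enriched DNA called by the authors, on chromosomes 1 to 22 and X. There were 13788 such peaks in the SOX2 list of replicate 1 and 44637 in the FOXA2 list combined from both replicates. The 6 lists used here held 194080 peaks, counted over all chromosomes and contigs. A second SOX2 list, combined from both replicates with 1365 peaks, served as a check. How that list was made is not clear from the sources used here, since it holds 179 of the shared and 88 of the unshared SOX2 peaks of replicate 1.

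A pioneer factor can bind its DNA motif in closed, nucleosome-covered chromatin and can open it for other proteins. SOX2 binds through an HMG box, which inserts into the minor groove and bends DNA, and is known for keeping stem cells pluripotent and for neural progenitors. FOXA2 binds through a forkhead domain, a winged helix resembling that of linker histone, and is known for forming endoderm, liver and pancreas. Neither tissue is related to bone, so these cells are a setting in which both factors are induced outside the tissues where they are best known.

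Each factor was represented by 1 list, so no test between replicates was possible, and read depth is unknown. Intervals in brackets are 95% intervals that cover counting error over peaks only. The lists were also cut at different levels. Peak strength is given here as the −log10 p that the authors deposited for each peak, taken for FOXA2 as the lower value of both replicates. It ran from 1.70 to 128 with a median of 3.23 in the SOX2 list, and from 1.52 to 39.4 with a median of 2.24 in the FOXA2 list. After correction for the number of regions tested, 1437 SOX2 peaks, or 10.4%, had a q of at most 0.05, while 8376, or 60.7%, had a q of 1. The irreproducible discovery rate (IDR), which is low for a peak ranked alike in both replicates, ran from 0.0137 to 0.350 in the FOXA2 list, with 1858 peaks at or under 0.05. Most peaks of both lists were therefore weak. The SOX2 replicate list and the combined SOX2 list also differ in kind. Of the combined peaks 91.2% lay in gene-free stretches, meaning for each chromosome its longest run of sequence in which RefSeq annotates no gene, mostly around the centromere. In the SOX2 list of replicate 1 that share was 8.73%, and in the FOXA2 list it was 5.19%. The main results are given with and without them.

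Promoters under SOX2 summits held SOX motifs more often than other promoters, and promoters under FOXA2 summits held the forkhead motif more often. A promoter window here runs from 250 bases before to 50 after a RefSeq transcription start of a protein-coding gene, and 22011 such windows of 15711 genes were searched. Of these, 134 held a SOX2 summit, the position of highest signal in a peak, 524 held a FOXA2 summit, and 26 held both. The 134 windows belong to 124 genes and the 524 to 496, since a gene can have several starts. Windows of the same gene are not independent, which the intervals over windows do not cover. The forkhead motif was searched as TGTTTAC and the SOX motif in its 2 common forms, ACAATG and ACAAAG, on both strands. The SOX forms share their first 4 bases and can overlap the forkhead motif only at their ends. Either SOX form was present in 20.2% of all windows and in 50.7% (42.4 to 59.1) of the windows with a SOX2 summit. In windows with a FOXA2 summit it was present in 22.1% (18.8 to 25.9), near the level of all windows. The forkhead motif showed the opposite pattern. It was present in 2.86% of all windows, in 10.7% (8.32 to 13.6) of windows with a FOXA2 summit and in 3.73% (1.60 to 8.44) of those with a SOX2 summit.

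The 9 sequences that follow are the windows with the strongest peaks, 3 from each class, and show how the motifs sit in promoters of either factor. They are the 250 bases before the start, 5′ to 3′ on the strand of the gene, from RefSeq on GRCh38.p14, the build line that the submitters' processing notes name as hg38. Capitals mark a forkhead or SOX motif on either strand, and everything else is in lower case. The first 3 held a summit of both factors and were ranked by the FOXA2 −log10 p alone, so their SOX2 peaks could be weak. MTF2, an accessory protein of the Polycomb repressive complex PRC2, is shown from chr1:93079033-93079282. KRTAP20-2, a keratin-associated protein of hair, is shown from chr21:30634956-30635205. CRKL, an adaptor protein in kinase signalling, is shown from chr22:20917157-20917406. The next 3 held a SOX2 summit alone. They belong to CLCA4, a regulator of chloride conductance, at chr1:86546828-86547077, to CDC45, a part of the replicative helicase, at chr22:19479216-19479465, and to ADRM1, a ubiquitin receptor of the proteasome, at chr20:62302646-62302895. The last 3 held a FOXA2 summit alone. They belong to RSRC1, a protein linked to splicing, at chr3:158109839-158110088, to TNK2, a tyrosine kinase, at chr3:195894737-195894986, and to DUSP11, an RNA phosphatase, at chr2:73780104-73780353. The windows of TNK2 and DUSP11 are on the minus strand and the others on the plus strand.
MTF2: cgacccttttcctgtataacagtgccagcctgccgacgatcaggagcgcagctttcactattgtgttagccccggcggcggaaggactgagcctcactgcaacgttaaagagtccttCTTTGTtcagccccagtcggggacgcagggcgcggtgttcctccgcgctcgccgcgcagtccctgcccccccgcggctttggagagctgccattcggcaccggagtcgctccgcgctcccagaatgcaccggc
KRTAP20-2: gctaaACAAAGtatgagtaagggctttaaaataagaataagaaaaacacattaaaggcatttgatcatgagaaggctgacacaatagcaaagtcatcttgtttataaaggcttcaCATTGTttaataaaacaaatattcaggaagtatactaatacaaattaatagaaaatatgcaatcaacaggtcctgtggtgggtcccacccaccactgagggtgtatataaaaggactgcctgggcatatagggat
CRKL: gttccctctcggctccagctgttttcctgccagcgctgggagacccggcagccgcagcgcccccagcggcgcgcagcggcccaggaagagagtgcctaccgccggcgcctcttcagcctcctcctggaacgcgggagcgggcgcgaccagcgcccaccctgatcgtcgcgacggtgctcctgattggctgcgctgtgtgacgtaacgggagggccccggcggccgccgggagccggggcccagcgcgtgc
CLCA4: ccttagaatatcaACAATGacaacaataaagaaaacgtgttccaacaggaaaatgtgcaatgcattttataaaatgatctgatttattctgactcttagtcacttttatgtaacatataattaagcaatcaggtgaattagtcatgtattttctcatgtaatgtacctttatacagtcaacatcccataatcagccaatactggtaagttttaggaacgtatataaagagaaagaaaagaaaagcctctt
CDC45: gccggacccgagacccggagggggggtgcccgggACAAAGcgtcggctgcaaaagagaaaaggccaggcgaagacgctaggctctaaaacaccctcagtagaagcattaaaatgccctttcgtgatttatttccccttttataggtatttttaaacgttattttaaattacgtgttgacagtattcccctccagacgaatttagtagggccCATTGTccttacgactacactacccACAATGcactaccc
ADRM1: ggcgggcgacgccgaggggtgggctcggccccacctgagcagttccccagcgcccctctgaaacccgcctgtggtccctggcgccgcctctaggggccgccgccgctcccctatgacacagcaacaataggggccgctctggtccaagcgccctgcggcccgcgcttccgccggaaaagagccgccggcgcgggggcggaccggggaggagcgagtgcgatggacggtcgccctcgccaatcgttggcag
RSRC1: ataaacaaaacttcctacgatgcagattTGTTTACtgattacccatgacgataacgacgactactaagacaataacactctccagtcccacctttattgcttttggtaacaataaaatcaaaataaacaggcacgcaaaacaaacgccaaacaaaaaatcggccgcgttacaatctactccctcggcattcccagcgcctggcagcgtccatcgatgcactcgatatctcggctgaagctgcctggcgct
TNK2: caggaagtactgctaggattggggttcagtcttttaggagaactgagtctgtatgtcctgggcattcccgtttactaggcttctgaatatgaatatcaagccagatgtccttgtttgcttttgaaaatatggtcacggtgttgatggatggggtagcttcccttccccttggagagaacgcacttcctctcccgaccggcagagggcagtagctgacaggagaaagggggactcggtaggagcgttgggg
DUSP11: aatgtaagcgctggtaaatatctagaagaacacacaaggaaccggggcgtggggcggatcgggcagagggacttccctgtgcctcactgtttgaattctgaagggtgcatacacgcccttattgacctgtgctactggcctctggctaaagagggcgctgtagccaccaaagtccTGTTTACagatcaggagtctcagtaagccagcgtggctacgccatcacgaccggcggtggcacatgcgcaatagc

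In the MTF2 window the SOX2 summit lay 116 bases before the start and the only motif, a SOX form, was centred 130.5 bases before it. The FOXA2 summit lay 5 bases after the start, with no forkhead match in the window. In the CDC45 window the SOX2 summit lay 50 bases before the start, between SOX forms centred 213.5 and 36.5 bases before it, and another was centred 11.5 bases before it. The CLCA4 window held the strongest SOX2 peak of the windows with a SOX2 summit alone, with a −log10 p of 11.2 and a summit 20 bases after the start. Its second SOX form, centred 41.5 bases after the start, lies beyond the printed bases. In DUSP11 the FOXA2 summit lay 116 bases before the start and the forkhead motif was centred 72 bases before it. The windows of CRKL, ADRM1 and TNK2 held none of the motifs. The SOX2 peak at ADRM1 had a −log10 p of 5.85 and the FOXA2 peak at TNK2 8.45. Strong peaks were thus not limited to windows with a match to these letters. The SOX2 −log10 p was 6.48 at MTF2, 2.13 at KRTAP20-2 and 2.96 at CRKL, against a list median of 3.23. At CRKL the SOX2 summit lay 248 bases before the start, at the edge of the searched window.

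The SOX motif was also closer to SOX2 than to FOXA2 summits. In windows of either base composition, each motif was more frequent under its own factor than in all windows. Of 121 SOX2 summits in promoter windows, 33.9% (26.1 to 42.7) had a SOX form centred within 50 bp, against 8.53% (6.33 to 11.4) of 469 FOXA2 summits. The forkhead motif was that close to 6.18% (4.34 to 8.74) of FOXA2 summits and 3.31% (1.29 to 8.19) of SOX2 summits, with overlapping intervals. Among windows with a GC content under 60%, a SOX form was found in 69.1% (57.4 to 78.8) of those with a SOX2 summit and in 31.3% of all. In windows of higher GC content the shares were 31.8% (21.8 to 43.8) and 12.2%. Windows with a FOXA2 summit held a SOX form in 30.3% (24.6 to 36.7) at low GC. At higher GC they did in 16.3% (12.6 to 20.9), above the share of all such windows. The forkhead motif was found in 14.2% (10.2 to 19.5) of low-GC windows with a FOXA2 summit against 4.65% of all low-GC windows, and in 8.17% (5.59 to 11.8) against 1.57% at higher GC. A match to these letters describes the window and does not show a bound site.

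**Figure D1:**
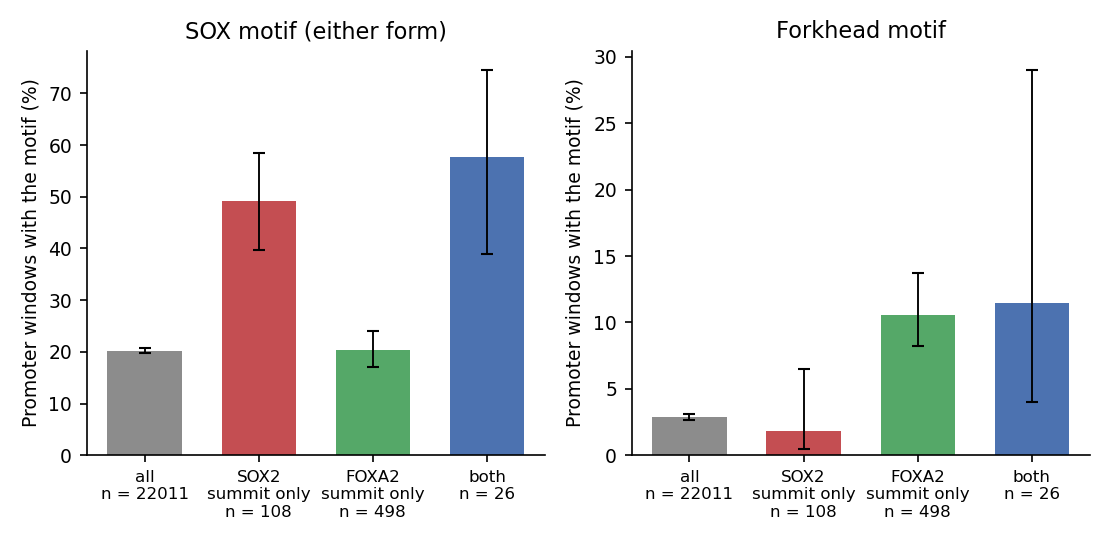
Share of promoter windows (%) with a SOX motif (left) and with the forkhead motif (right), for all windows, windows with a summit of SOX2 only, of FOXA2 only, and of both. Bars are shares and lines 95% Wilson intervals. The SOX motif stands at 49.1% in the SOX2-only windows and 20.3% in the FOXA2-only windows, and the forkhead motif at 1.85% and 10.6%.

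The majority of SOX2 peaks did not overlap a FOXA2 peak. A peak was called shared where the lists overlapped by at least 1 bp. Of the 13788 SOX2 peaks 2268 were shared, or 16.4% (15.8 to 17.1), and of the 44637 FOXA2 peaks 2244 were shared, or 5.03% (4.83 to 5.23). The other 11520 SOX2 peaks and 42393 FOXA2 peaks were in 1 list only. Nearly every shared region was a simple pair, since 2266 of the 2268 SOX2 peaks met 1 FOXA2 peak. The FOXA2 peaks covered 0.973% of the bases between the ends of the chromosomes, and 15.1% of SOX2 summits fell in them, a ratio of 15.5. The shares depended on the lists: with the combined SOX2 list they were 28.4% and 0.876%, with the SOX2 peaks of a p of at most 1e-05 they were 26.2% and 1.08%, and with as many of the strongest FOXA2 peaks as SOX2 peaks 8.00% and 7.88%. With the FOXA2 peaks of an IDR of at most 0.05 they were 1.58% and 11.5%.

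The gene-free stretches held a disproportionate part of the shared peaks. Inside them 613 of 1204 SOX2 peaks were shared, or 50.9% (48.1 to 53.7), and 26.2% (24.5 to 28.1) of the FOXA2 peaks. Outside them the shares were 13.2% (12.6 to 13.8), or 1655 of 12584, and 3.87% (3.69 to 4.05). With SOX2 summits outside the stretches alone, 11.7% fell in FOXA2 peaks that covered 0.992% of the bases, a ratio of 11.8. The direction of the comparison with the covered bases was thus the same in both kinds of region.

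The summits of shared peaks lay closer together inside the gene-free stretches than outside them. Since shared peaks overlap by definition, the peak widths limit these distances. The median widths of the SOX2 and FOXA2 peaks were 247 and 418 bp inside the stretches and 316 and 736 bp outside. Over all shared peaks the median distance was 88 bp (82 to 94), and 54.1% of the shared SOX2 peaks had a FOXA2 summit within 100 bp. Inside the stretches the median was 23 bp (20 to 26), and outside them it was 128 bp (117 to 137). The 120 shared peaks near a gene start or end had a median distance of 188 bp (140 to 265). Their FOXA2 peaks were wider, with a median of 1034 bp. With the combined SOX2 list, which lies almost wholly in the stretches, the median distance was 24 bp (22 to 27), and with FOXA2 peaks of an IDR of at most 0.05 it was 29 bp (21 to 37).

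Strength in the factors went together in the stretches and not elsewhere. Across shared pairs, the Spearman correlation of the SOX2 and FOXA2 −log10 p was 0.682 over 613 pairs inside the stretches and 0.00371 over 1655 pairs outside them. Pairs are not replicates, and all values of a factor come from the same libraries, so these are descriptions.

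FOXA2 summits were dense around SOX2 summits at short distances and stayed moderately dense far away. Outside the stretches there were 308 FOXA2 summits per Mb within 50 bp of a SOX2 summit, against a mean of 14.8 per Mb, a ratio of 20.9. The density fell to 87.4 per Mb at 200 to 300 bp and 31.5 per Mb at 500 to 1000 bp. At 50000 to 100000 bp it was still 23.9 per Mb, or 1.62 times the mean. Inside the stretches it was 3821 per Mb within 50 bp. Across all peaks the nearest FOXA2 summit lay a median of 12218 bp from a SOX2 summit, and 93.9% of SOX2 summits had one within 100 kb. In the other direction the median was 58390 bp, in a comparison that also depends on the smaller number of SOX2 peaks.

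**Figure D2:**
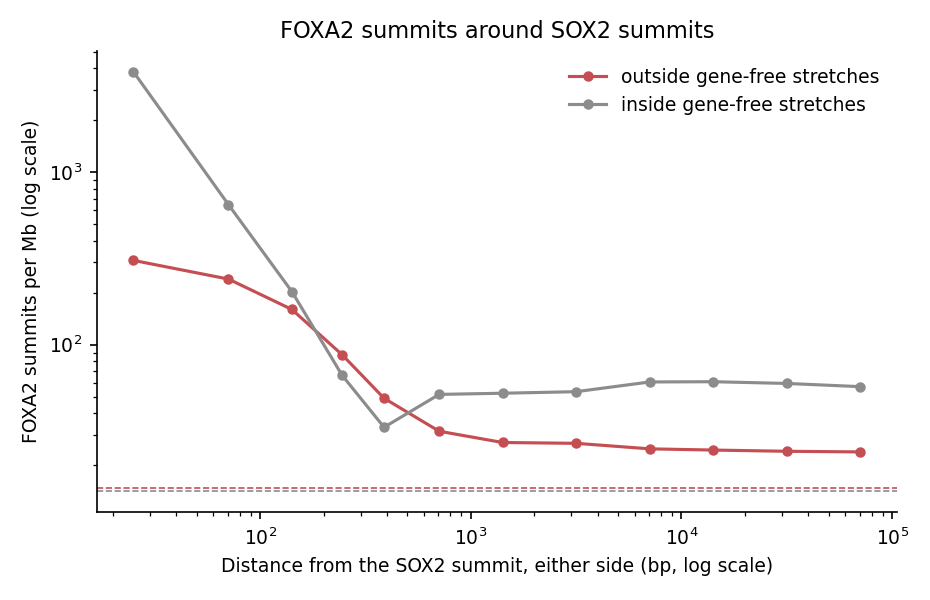
FOXA2 summits per Mb against distance from the SOX2 summit in bp, both on log scales, outside (red) and inside (grey) the gene-free stretches. Points are densities in distance bins and dashed lines the mean density of each region, 14.8 and 14.1 per Mb. The density outside falls from 308 per Mb at the summit to 23.9 per Mb at the farthest bin, which is above its dashed line.

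Peaks of SOX2 alone lay near gene starts less often than shared peaks or peaks of FOXA2 alone. A summit counted as near when it was within 1 kb of a known transcription start of a protein-coding gene, or of either end where a gene had no start in the table. This was so for 2.29% (2.03 to 2.58) of SOX2-only peaks, 5.29% (4.44 to 6.29) of shared SOX2 peaks and 4.91% (4.71 to 5.12) of FOXA2-only peaks. SOX2-only minus FOXA2-only was -2.62 percentage points (-2.95 to -2.27). The shared peaks exceeded the SOX2-only peaks by 3.00 points (2.10 to 4.03), and by 4.84 points (3.64 to 6.21) outside the stretches. These differences were not robust to threshold. With the 1858 FOXA2 peaks of an IDR of at most 0.05 they were 0.862 (0.0311 to 1.50) and -1.43 (-2.38 to 1.17). Both had the opposite sign, though the second interval includes no difference. With the combined SOX2 list the second was 1.46 (-0.200 to 3.78).

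SOX2-only summits were also less often inside genes. A protein-coding gene held 40.6% (39.7 to 41.5) of the SOX2-only summits and 48.1% (47.6 to 48.6) of the FOXA2-only summits, a difference of -7.53 points (-8.54 to -6.52). Outside the stretches it was -7.36 points (-8.41 to -6.31). The combined SOX2 list cannot serve as a check here, since the stretches that hold most of it have no gene by definition. Of the shared SOX2 peaks 35.1% were inside genes over all peaks, below both other classes, but 48.0% (45.6 to 50.4) outside the stretches, above the 42.7% (41.8 to 43.7) of SOX2-only peaks. Over 100 kb from any protein-coding gene lay 44.0% (42.0 to 46.1) of shared SOX2 peaks, 34.4% (33.6 to 35.3) of SOX2-only peaks and 27.9% (27.5 to 28.4) of FOXA2-only peaks. Without the stretches the shared peaks no longer had the highest share, since 30.9% (30.1 to 31.8) of SOX2-only peaks were then that far, against 24.9% (24.5 to 25.4) of FOXA2-only peaks and 23.3% (21.3 to 25.4) of shared peaks.

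**Figure D3:**
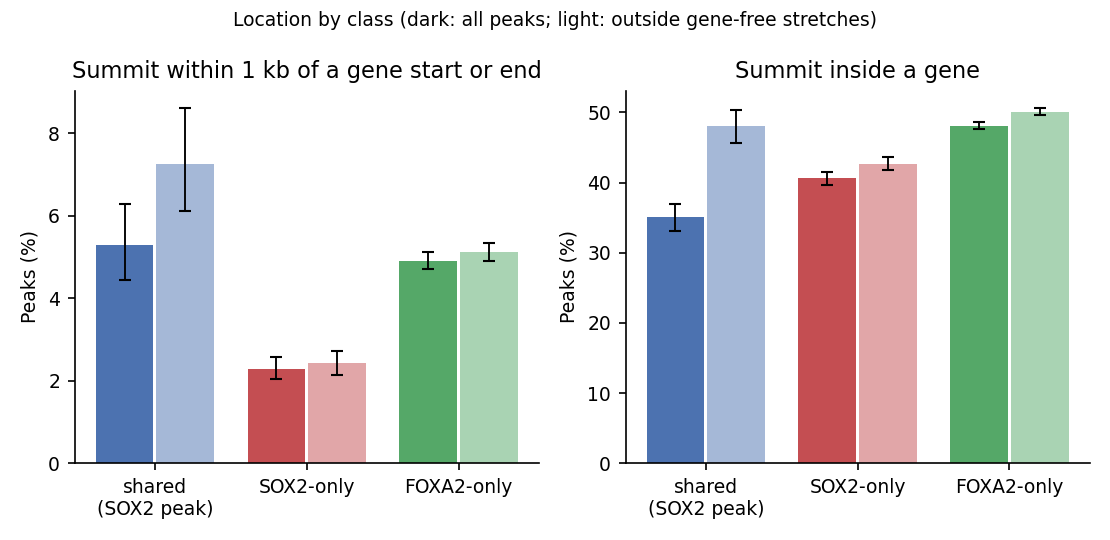
Percentage of peaks with a summit within 1 kb of a gene start or end (left) and inside a protein-coding gene (right) for shared SOX2 peaks, SOX2-only and FOXA2-only peaks. Dark bars are all peaks, light bars those outside the gene-free stretches, and lines 95% Wilson intervals. SOX2-only peaks are lowest near gene starts, at 2.29% and 2.42%, and the shared peaks inside genes move from 35.1% to 48.0% without the stretches.

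Sharing went with peak strength, but for SOX2 this lay in the gene-free stretches. Each list was cut by −log10 p into 4 equal parts. Of the strongest part of the SOX2 peaks 23.4% (22 to 24.8) were shared, against 14% (12.8 to 15.2) of the weakest part. Outside the stretches these shares were 14.4% (13.2 to 15.7) and 12.9% (11.8 to 14.1), a difference of 1.53 points (-0.173 to 3.22). Ranked by the authors' fold enrichment over all peaks, the difference was 0.725 points (-1.07 to 2.52). The median fold enrichment was 3.22 in shared and 3.20 in SOX2-only peaks. For FOXA2, 8.22% (7.72 to 8.74) of the strongest and 2.27% (2.01 to 2.56) of the weakest part were shared, and the difference outside the stretches was 3.33 points (2.82 to 3.84). With the combined SOX2 list the differences were 22.4 points (15.4 to 29.2) for SOX2 peaks and 1.96 points (1.70 to 2.25) for FOXA2 peaks.

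**Figure D4:**
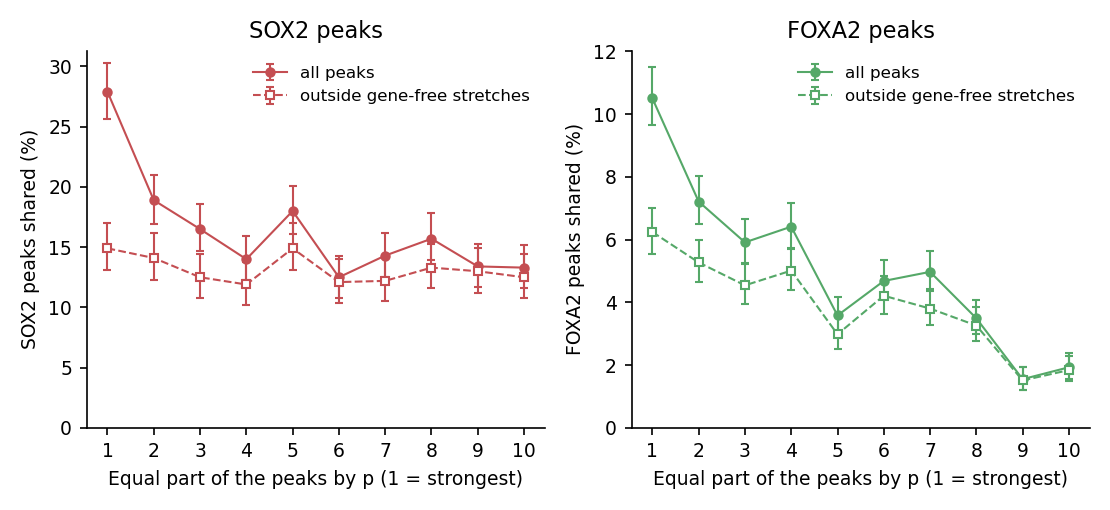
Percentage of SOX2 peaks (left) and FOXA2 peaks (right) that were shared, in 10 equal parts of the list from strongest to weakest −log10 p. Points are shares and lines 95% Wilson intervals, filled for all peaks and open for those outside the gene-free stretches. The strongest part of the SOX2 peaks stands at 27.9% over all peaks and 14.9% outside the stretches.

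Peak density followed a like order over chromosomes for both factors. Outside the stretches chromosome 22 had the highest density of both, with 10.7 SOX2 and 27.7 FOXA2 peaks per Mb, against means of 4.39 and 14.8. The lowest densities were on chromosome X, with 0.364 and 3.33 per Mb, and on chromosome 19, with 0.363 and 4.12. The Spearman correlation of the densities over 23 chromosomes was 0.737, and over 2858 bins of 1 Mb it was 0.733. Both lists come from the same genome and cell line, and the part of this in the correlation was not tested. Of the bins, 550 held FOXA2 peaks and no SOX2 peak, and 2 held SOX2 peaks and no FOXA2 peak.

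The shared share also varied between chromosomes. On chromosome 19, 72 of 107 SOX2 peaks were shared, or 67.3% (57.9 to 75.4), but 71 of the 72 lay in its gene-free stretch, and outside it 1 of 20 was shared. Outside the stretches the highest shares were 21.6% (17.1 to 26.9) on chromosome 21 and 21.1% (17.5 to 25.2) on chromosome 22. The stretches of these chromosomes held no peak of either list, so peaks beside their centromeres remained in the count. Restricted to SOX2 peaks within 500 kb of a protein-coding gene, the shares were 19.5% (14.5 to 25.7) and 20.0% (16.2 to 24.5), against 13.6% (12.9 to 14.2) over all chromosomes. Single regions went against the common order. The bin from 90 to 91 Mb of chromosome 3, beside its centromere, held 98 SOX2 and 12 FOXA2 peaks, and 5 of the former were shared.

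At the level of genes, most genes with a SOX2 summit also had a FOXA2 summit, usually at another place. A gene was counted where a summit lay in it or within 10 kb. Of 19970 protein-coding genes 3636 had a SOX2 summit, or 18.2%, and 10231 had a FOXA2 summit, or 51.2%. Both were present at 3107 genes, or 15.6%, and a shared peak at 885, or 4.43%. Of the SOX2 genes 85.5% (84.3 to 86.6) had a FOXA2 summit, and of the FOXA2 genes 30.4% (29.5 to 31.3) had a SOX2 summit. With as many of the strongest FOXA2 peaks as SOX2 peaks, the share of SOX2 genes was 56.8% (55.2 to 58.5), and with the FOXA2 peaks of an IDR of at most 0.05 it was 13.9% (12.8 to 15.1), so it depends on the length of the FOXA2 list.

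Gene length moved with all of these counts. The median length was 105 kb for genes with both factors, 24.5 kb with SOX2 only, 32.0 kb with FOXA2 only and 13.2 kb with neither. Among SOX2 genes under 10 kb, 56.2% had a FOXA2 summit, and among those of 500 kb or more all did.

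The gene lists describe which kinds of gene these were, and their members were counted against the 18.2% and 51.2% of all protein-coding genes. Of 27 partner and target genes of SOX2 in pluripotent and neural cells, 5 had a SOX2 summit (18.5%) and 13 a FOXA2 summit (48.1%). NOTCH1, a receptor of neural progenitors, and NCAM1, a neural adhesion protein, had a shared peak each. POU3F3 had 1 summit of each factor without a shared peak. PRDM14, a regulator of pluripotency, had a SOX2 summit with a −log10 p of 5.55 and no FOXA2 summit. Both factors were present at 3 of these genes, so genes with FOXA2 alone outnumbered those with SOX2 alone. Of 32 FOXA targets and partners of endoderm, liver and pancreas, 6 had a SOX2 summit (18.8%) and 15 a FOXA2 summit (46.9%). APOB, the structural protein of low-density lipoprotein, and HNF4A, a liver nuclear receptor, had a shared peak each. HNF4G had 1 SOX2 and 5 FOXA2 summits without a shared peak. G6PC1, an enzyme of glucose release, had 2 FOXA2 summits and no SOX2 summit. Of the 6 genes with a SOX2 summit, 5 also had a FOXA2 summit. Both target lists were near the shares of all genes for both factors, with shorter genes, at median lengths of 9.74 and 13.8 kb against 24.2 kb for all genes. Of all protein-coding genes under 10 kb, 5.69% had a SOX2 summit and 29.7% a FOXA2 summit. Of those from 10 to 50 kb, 10.9% and 45.7% did. The SOX2 shares of both target lists were above these values. Members were not matched by length, and both lists also hold long genes.

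The families of the factors were counted in the same way. Of 18 other SOX genes, 5 had a SOX2 summit, or 27.8% against 18.2% of all genes, and 3 a FOXA2 summit, or 16.7% against 51.2%. These are short genes, with a median length of 5.04 kb. Of all protein-coding genes under 10 kb, 5.69% had a SOX2 summit and 29.7% a FOXA2 summit. SOX5, a long gene of cartilage and neural development, held most of the summits of the SOX genes. It had 15 SOX2 summits, 41 FOXA2 summits and 4 shared peaks in it or within 10 kb. SOX9, a regulator of cartilage, had 1 SOX2 summit with a −log10 p of 5.86 and no FOXA2 summit. Of 43 other forkhead genes, 7 had a SOX2 summit (16.3%) and 22 a FOXA2 summit (51.2%), near the shares of all genes. The forkhead genes were also short, with a median length of 5.70 kb, and both of their shares were above those of genes under 10 kb. The family also holds long genes, and members were not matched by length. None of the forkhead genes had a shared peak, a count too small to read against the 4.43% of all genes. FOXP2, FOXJ3 and FOXP1, long genes for forkhead regulators, had 11, 12 and 11 FOXA2 summits and 2, 4 and 0 SOX2 summits.

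FOXA2 summits were found at a larger share of the AP-1 and YAP-TEAD genes than of all genes, while the osteoblast and mesenchymal genes were near the shares of all genes. Of 25 genes of the AP-1 and YAP-TEAD pathways, 19 had a FOXA2 summit, or 76.0% against the 51.2% of all genes, and 5 a SOX2 summit, or 20.0% against 18.2%. All 5 had both, and 4 had a shared peak: CCN1, a YAP target that encodes a matrix protein, FOSL2 and ATF3, which are AP-1 family members, and MAFK, a small MAF protein. Their shared peaks were weak, with SOX2 −log10 p values from 1.77 to 3.16. Of 25 osteoblast and mesenchymal genes, 14 had a FOXA2 summit (56.0%) and 4 a SOX2 summit (16.0%). SPARC, a bone matrix protein, RUNX1, a Runt family regulator, CDH11, the osteoblast cadherin, and IBSP, bone sialoprotein, had 1, 9, 5 and 1 FOXA2 summits and no SOX2 summit. None of these 25 genes had a shared peak, a count too small to read against the 4.43% of all genes.

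The long neuronal genes had the highest shares for both factors, and the ribosomal protein genes the lowest SOX2 share, of the 8 lists. Of 29 long genes for neuronal adhesion proteins and channels, with a median length of 1214 kb, 24 had a SOX2 summit, 26 a FOXA2 summit, and 24 both. Per Mb of these genes with 10 kb at each end there were 4.78 SOX2 and 16.6 FOXA2 summits, against 4.13 and 16.8 for all protein-coding genes. PCDH15, a protocadherin of hair-cell tip links, had 24 SOX2 and 73 FOXA2 summits, and DLG2, a postsynaptic scaffold, had 28 and 36. CNTNAP2, a neurexin-family adhesion protein of comparable length, had 0 and 6 and was singled out after its values were seen. Of 76 genes for cytosolic ribosomal proteins, 3 had a SOX2 summit, or 3.95%, and 33 a FOXA2 summit, or 43.4%. The 3 with a SOX2 summit were RPL23A, RPL4 and RPLP1, and all 3 had a shared peak. The ribosomal protein genes are short, with a median length of 4.91 kb. Of all protein-coding genes under 10 kb, 5.69% had a SOX2 summit and 29.7% a FOXA2 summit. Per Mb, the ribosomal protein genes had 2.00 SOX2 and 28.5 FOXA2 summits. Genes of this family have many processed copies elsewhere in the genome, so reads may be split between them.

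**Figure D5:**
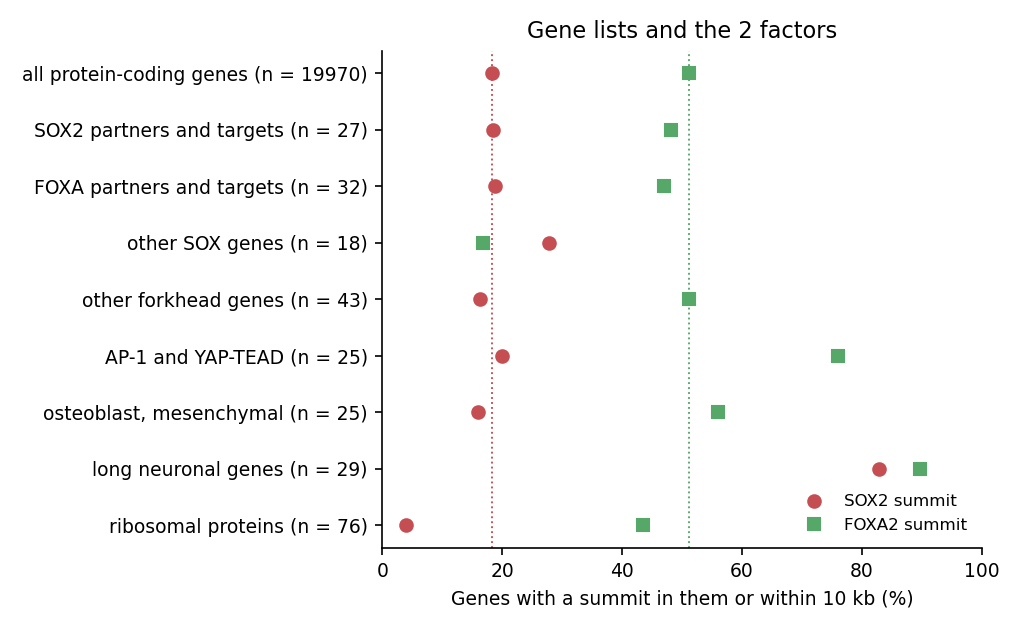
Percentage of genes with a SOX2 summit (red circles) and a FOXA2 summit (green squares) in them or within 10 kb, for all protein-coding genes and 8 gene lists, with the number of genes in brackets. Dotted lines are the values of all genes, 18.2% and 51.2%. The long neuronal genes stand at 82.8% and 89.7% and the ribosomal protein genes at 3.95% and 43.4%. Their median lengths are 1214 and 4.91 kb, against 24.2 kb for all genes.

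The genes with the most summits were long and often held by both factors. TTC28, a tetratricopeptide repeat protein on chromosome 22 at 27978014 to 28679840, held 45 SOX2 summits, 58 FOXA2 summits and 11 shared SOX2 peaks, the most shared peaks in a gene. DLGAP1, a postsynaptic scaffold on chromosome 18, held 46, 35 and 8 of these. LINGO2, a neuronal membrane protein, held 33, 58 and 7, and PRKG1, a cGMP-dependent protein kinase, held 30, 58 and 5. CTNNA3, an alpha-catenin, held 30 SOX2 and 56 FOXA2 summits but 1 shared SOX2 peak, and SDK1, an adhesion protein, held 28 and 45 with 2 shared. EYS, a photoreceptor protein, had the most FOXA2-only summits, 70, beside 14 SOX2 summits. The counts of shared peaks thus differed between genes with like numbers of summits.

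Counted per length, other genes led. NSUN6, an RNA methyltransferase on chromosome 10 at 18545561 to 18659327, held 15 SOX2 summits and no FOXA2 summit, or 13.2 SOX2-only summits per 100 kb, the highest of the genes of at least 50 kb with at least 5. Its peaks lay in a row of 18.5 kb, from 18553928 to 18572465, with −log10 p values from 1.78 to 8.94 and fold enrichments from 2.24 to 5.93. Of the 15 peaks 3 had a q of at most 0.05, and 8 overlapped a peak of the SOX2-FOXA2 CTD fusion list. YPEL2 held 5 SOX2 summits and no FOXA2 summit. BRIP1, a DNA helicase, held 12 SOX2 and 13 FOXA2 summits, MOB3B, a MOB family protein, held 12 and 9, and RPA3, a subunit of the replication protein A complex, held 6 and 3. On the FOXA2 side, PITPNB, a phosphatidylinositol transfer protein, held 11 FOXA2-only summits in 67.6 kb beside 4 SOX2 summits, 1 of them shared. MN1, a transcriptional co-regulator, and EIF4ENIF1, which carries the cap-binding protein eIF4E, held 7 each with no SOX2 summit. These 3 lie on chromosome 22, the chromosome with the highest density of both factors. TICRR, a replication initiation protein, held 6. NBPF26 held 19, but it belongs to a family of near-identical copies, so its count is uncertain.

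The strongest SOX2-only peaks outside the gene-free stretches lay within 1 gene or far from any protein-coding gene. The strongest SOX2 peak lay within TRAPPC9, a subunit of a vesicle-tethering complex, on chromosome 8 at 140156589 to 140157571, with a −log10 p of 128 and a fold enrichment of 21.5. No FOXA2 peak overlapped it, and the nearest FOXA2 summit was 3.42 kb away. It was also the strongest peak of the combined SOX2 list by p, at a −log10 p of 53.5, and the fusion list held a peak there, while the lists of FOXA1 and of FOXA2 without its CTD did not. A second SOX2-only peak in TRAPPC9, at 139996865 to 139998713, had a −log10 p of 32.8. The other 3 of the 5 strongest SOX2-only peaks lay on chromosomes 21 and 22, between 514 and 4157 kb from the nearest protein-coding gene.

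The 5 strongest FOXA2-only peaks lay in genes or within 201 kb of one. The strongest 2 were on chromosome 4 at 1427142 to 1429369 and 1434155 to 1435730, 22.4 and 29.0 kb from NKX1-1, a homeobox gene, with lower −log10 p values of 39.4 and 36.6 and the nearest SOX2 summits 298 and 291 kb away. Others lay within SLC35F1, a solute carrier family gene, on chromosome 6, and within ADAMTS3, a procollagen-processing protease, on chromosome 4. The remaining peak, the farthest, was nearest to POLR1F, a subunit of RNA polymerase I, on chromosome 7. All 5 strongest shared peaks outside the stretches lay on the acrocentric chromosomes 14, 21 and 22, from 577 to 1702 kb from the nearest protein-coding gene. Their summit distances were 4 to 47 bp. The strongest SOX2-only peaks on chromosomes 21 and 22 lay in a like kind of place. The stretches of chromosomes 21 and 22 held no peak of either list, and that of chromosome 14 held 1 FOXA2 peak and no SOX2 peak. Peaks beside the centromeres of all 3 chromosomes were thus hardly left out.

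Other lists of the study held the classes in different amounts. The SOX2-FOXA2 CTD fusion, SOX2 joined to the C-terminal domain of FOXA2, had a list of replicate 1 that held 75.8% (75 to 76.6) of SOX2-only peaks, 69.5% (67.6 to 71.3) of shared SOX2 peaks and 6.52% (6.28 to 6.75) of FOXA2-only peaks. The list of FOXA2 without its CTD held 8.68% (8.18 to 9.21), 67.6% (65.7 to 69.5) and 50.3% (49.8 to 50.8) of them. Full-length FOXA1, of the same family as FOXA2, held 3.82% (3.48 to 4.19), 34.1% (32.2 to 36.1) and 39.7% (39.2 to 40.1). Outside the gene-free stretches FOXA1 held 3.96% (3.61 to 4.34), 42.8% (40.4 to 45.2) and 40.9% (40.4 to 41.4), so the order of the shared and FOXA2-only peaks turned. Peaks of SOX2 alone were thus mostly found again in the list of the other protein with SOX2 in it. Shared peaks were mostly found in the lists of the fusion and of FOXA2 without its CTD, and less often in that of FOXA1. The classes were defined by overlap with the FOXA2 list, so their shares in lists of FOXA proteins follow in part from that definition. The shares also depend on list length, which was 42289 peaks for the fusion, 52866 for FOXA2 without its CTD and 37219 for FOXA1. The combined SOX2 list held 0.764% (0.620 to 0.940) of SOX2-only peaks and 7.89% (6.85 to 9.07) of shared SOX2 peaks, and outside the stretches 0.631% (0.499 to 0.798) and 2.05% (1.47 to 2.86). Nearly all SOX2 peaks described here thus rest on replicate 1 alone.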

How the data were processed

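Peak lists of Flag ChIP-seq were used as deposited. Per the submitters' processing notes, the tools were FastQC 0.10.1, Trim Galore, Bowtie2 2.4.4, SAMtools 0.1.18, MACS2 and deepTools 2.4.1 with the build hg38, and which step used which is not given. The SOX2 list of replicate 1 gives for each peak a fold enrichment (ratio), a −log10 p and a −log10 q, all by the authors. The combined lists hold, for each replicate, a −log10 p without a replicate number, a −log10 IDR that the authors deposited as a log10 value, and an IDR score, which was checked but not used. Control and peak-calling limits are not given in the sources used here. All strengths are the authors' and describe, rank or filter peaks within a list.

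Groups came from the sample titles. Peaks were compared with Python 3.11.15, numpy 2.4.6, pandas 2.3.3 and scipy 1.17.1, and overlap, distance and interval functions were tested on simulated lists. Shares have Wilson intervals, differences Newcombe intervals and medians exact binomial intervals, all at 95%. No p-value was computed. Genes are the 19970 protein-coding genes of RefSeq GRCh38.p14 on chromosomes 1 to 22 and X, 15811 of them with a known start. Of the 14 deposited lists 6 were used. The gene-free stretches span 164 Mb of 3030 Mb.

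Named peaks are the 5 strongest of each class outside the stretches. Named genes are the 5 with most summits of a class, the 5 with most per 100 kb among genes of at least 50 kb with at least 5 summits, and up to 4 members of each of 8 gene lists, those with the strongest shared and then one-list peaks. 1 listed gene had no match by symbol. The printed promoters are the 3 with the strongest peak in each class, ranked by the FOXA2 −log10 p where both factors had a summit. Members, lists and rules were chosen with earlier results of these data known. Alternatives were other lists, thresholds, overlap rules, gene windows and regions.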

Additional observations from a re-analysis of the deposited data

Results flagged for a closer look

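Both lists held peaks on contigs other than whole chromosomes, which no comparison used. There were 189 in the SOX2 list of replicate 1, on 78 contigs and 1.35% of its peaks, and 434 in the combined FOXA2 list, on 153 contigs and 0.963% of its peaks. They were singled out because a count of 0 would allow up to 3. Of the 189 SOX2 peaks, 23 were overlapped by a FOXA2 peak, or 12.2%, and 45 contigs held peaks of both lists.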

How the results depend on the processing

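No paired analysis was possible because each factor is represented by 1 list and no fit across samples was made. The 9 results were recomputed under alternatives, giving 107 values, of which 25 stayed within the interval of the reported value, 79 moved beyond it and 3 changed direction. The cause was not tested except where fewer peaks enter by construction. A FOXA2 limit of an IDR of 0.01 left no peak and gave no value, so a limit of 0.05 was added. The limits of q and IDR of 0.05, the margins of 2 Mb and 500 kb, known starts alone and either end of every gene were chosen after seeing the data. Read depth is unknown, so list lengths and thresholds could not be put on a common scale.

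The share of SOX2 peaks shared was 16.4% as reported. It was 28.4% with the combined SOX2 list, 26.2% with SOX2 p at most 1e-05, 27.4% with q at most 0.05, 8.00% with as many of the strongest FOXA2 peaks, 1.58% with FOXA2 IDR at most 0.05 and 7.52% with both limits. Without the stretches it was 13.2%, with 2 Mb more on each side 13.4%, within 500 kb of genes 13.6%, at 50% reciprocal overlap 7.31%, and for summits within 100 bp 8.89%. In the same order the share of FOXA2 peaks, 5.03% as reported, was 0.876%, 1.08%, 0.883%, 7.88%, 11.5%, 5.81%, 3.87%, 3.77%, 3.92%, 2.26% and 2.75%. The median summit distance, 88 bp as reported, was 24 bp, 28.5 bp, 28.5 bp, 55 bp, 29 bp, 13.5 bp, 128 bp, 131 bp, 129 bp and, at 50% reciprocal overlap, 43 bp.

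Near gene starts, SOX2-only minus FOXA2-only was -2.62 points as reported. It was -3.32 with the combined list, -4.01 with p at most 1e-05, -3.91 with q at most 0.05, -1.26 with equal numbers, 0.862 with IDR at most 0.05, -0.588 with both limits, -2.23 for summits within 100 bp, -4.23 within 2.5 kb, -3.36 with all annotated genes and -2.06 with known starts alone. Shared minus SOX2-only, 3.00 as reported, was 1.46, 1.12, 0.976, 1.60, -1.43 and -0.428 under the first 6 of these, 0.256 for summits within 100 bp, 4.84 without the stretches, 4.65 with 2 Mb more and 5.14 within 500 kb of genes. The intervals of -1.43 and -0.428 were -2.38 to 1.17 and -1.52 to 3.73, and both include no difference. Inside genes, the difference of -7.53 was -43.8 with the combined list, most of which lies where no gene is annotated, -6.51 with equal numbers, -6.50 with q at most 0.05 and -5.59 without the stretches and 2 Mb.

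The excess of shared peaks in the strongest over the weakest of 4 equal parts of the SOX2 peaks, 9.40 points as reported, was 22.4 with the combined list, 16.1 with p at most 1e-05, 24.1 with q at most 0.05, 2.96 with IDR at most 0.05, 18.6 with both limits, 1.53 without the stretches, 0.716 with 2 Mb more, 0.704 within 500 kb of genes and 0.725 by fold enrichment. For FOXA2 peaks, 5.95 as reported, it was 1.96, 2.37, 2.02, 13.1, 11.8, 3.33, 3.20 and 3.49 under the first 8 of these and 3.85 by the other p column. The share of SOX2 genes with a FOXA2 summit, 85.5% as reported, was 93.5%, 92.1%, 92.0%, 13.9% and 22.6% under the first 5, 56.8% with equal numbers, 58.5% with equal numbers in the gene body alone, and 92.2% with 50 kb around each gene.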

Other observations

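The strongest peaks had the lowest share near gene starts in both lists. In the SOX2 list cut into 4 equal parts by −log10 p, 1.51% of the strongest part lay within 1 kb of a gene start or end, against 2.44%, 3.48% and 3.71% of the others in order of strength. In the FOXA2 list the shares were 3.79%, 4.99%, 5.65% and 5.32% from the strongest to the weakest part.

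Whether SOX2 or FOXA2 peaks lay closer together depended on how many FOXA2 peaks were used. Another SOX2 summit lay within 10 kb of 25.3% (24.6 to 26.0) of SOX2 summits, against 17.3% (16.7 to 17.9) among the 13788 strongest FOXA2 peaks and 39.0% (38.5 to 39.4) in the whole FOXA2 list. Outside the gene-free stretches the shares were 22.8% (22.1 to 23.5), 14.2% (13.6 to 14.8) and 37.1% (36.7 to 37.6). Over 1 Mb bins, the 285 bins with most SOX2 peaks held 38.1% of the SOX2 peaks and 21.2% of the FOXA2 peaks.

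The FOXA2 peaks that were shared with SOX2 also had the better match between FOXA2 replicates. An IDR of at most 0.05 was reached by 9.49% of the 2244 shared and 3.88% of the 42393 FOXA2-only peaks. The Spearman correlation of the −log10 p of both replicates was 0.596 over the shared and 0.471 over the FOXA2-only peaks, given as descriptions. The shared FOXA2 peaks were also stronger, with a median −log10 p of 2.48 against 2.20. Of them 27.1% lay in the gene-free stretches, against 4.03% of the FOXA2-only peaks. The comparison was not repeated outside the stretches or at equal strength.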
